A study of Mus musculus with 22 samples.

Results

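The genes described here are 8 members of cholesterol synthesis and of its feedback control by the transcription factor SREBP2, measured in isolated pancreatic islets of 22 male mice. Members were taken by gene symbol from the table of 57010 genes, and the symbols were Hmgcs1, Sqle, Idi1, Fdps, Fdft1, Cyp51, Lss and Insig1. Each symbol stood on 1 row, and all 8 members were among the 16756 genes that passed the filter on low values, a minimum of 1 TPM in 5 or more mice (TPM is a transcript abundance per length, scaled to the same total in every library). The mice were 5.5 weeks old, and each library held RNA from the islets of 1 mouse. They were either wild type for Mafa (WT) or heterozygous (Het) for the S64F change in MAFA, on a background labelled C57 or on one labelled Mixed. C57 mice numbered 5 WT and 6 Het, and Mixed mice likewise 5 WT and 6 Het. MAFA is a transcription factor of mature beta cells, the insulin-producing cells of the islet. The strains of the Mixed background are not named in the labels, which also do not say how the allele was made. Whole islets hold several cell types, so that fewer cells of a type and less RNA per cell cannot be told apart.

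Cells make cholesterol from acetyl-CoA through mevalonate and squalene. HMGCS1 makes HMG-CoA at the head of the pathway. IDI1 and FDPS then build the isoprenoid farnesyl diphosphate, FDFT1 joins farnesyl units into squalene, SQLE oxidises squalene, LSS closes the ring to give lanosterol, and CYP51 removes a methyl group from lanosterol. Transcription of these genes is driven by SREBP2, which SCAP carries from the endoplasmic reticulum to the Golgi for cleavage when membrane sterol is low. INSIG1 holds SCAP and SREBP in the endoplasmic reticulum when sterol is high, and its own gene is a target of SREBPs. In beta cells, membrane cholesterol affects insulin granules and their release.

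Mafa mRNA checked the labels: all Het mice of a background lay below all its WT mice, with 117 ± 23.2 TPM (SD, n = 6) against 441 ± 87.6 (n = 5) in C57 and 152 ± 37.1 (n = 6) against 598 ± 143 (n = 5) in Mixed. Sequencing depth cannot be read from TPM and is unknown. The summed TPM of 7 beta cell markers was 370000 to 450000 in C57 WT and 324000 to 379000 in C57 Het mice, and 401000 to 479000 and 251000 to 343000 in WT and Het mice of the Mixed background. In the same order, the ranges of 5 alpha cell markers were 19100 to 57500, 71400 to 117000, 15800 to 27600 and 65500 to 107000, and those of 6 mesenchymal markers 33.1 to 86.7, 38.9 to 62, 30.6 to 59.8 and 56.9 to 347. No marker of these 3 lists was at 0 in every mouse. C57 WT replicate 5 stood apart from the other C57 WT mice, with the group's lowest level of all 8 members and the group's highest summed mesenchymal markers. Results that rest on this mouse are given with and without it.

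All 8 members were above 1 TPM in all 22 mice. On the TPM scale, which is per transcript length, Insig1 was the most abundant member, at 54.9 to 185 TPM. Sqle (36.3 to 68.4), Hmgcs1 (26 to 59.6), Fdps (24.4 to 43), Fdft1 (29.5 to 42) and Cyp51 (19.4 to 44.3) covered overlapping ranges. Lss lay lower, at 8.3 to 17.2 TPM, and Idi1 was lowest, at 2.1 to 8.46 TPM. The summed level of the 7 enzymes was 217 ± 36.7 TPM (n = 5) in C57 WT and 223 ± 30.7 (n = 6) in C57 Het mice, and 215 ± 22.3 (n = 5) and 178 ± 17.1 (n = 6) in the corresponding Mixed mice. The first 3 of these means lay within 1 SD of each other, and the Mixed Het mean was the lowest.

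**Figure D1:**
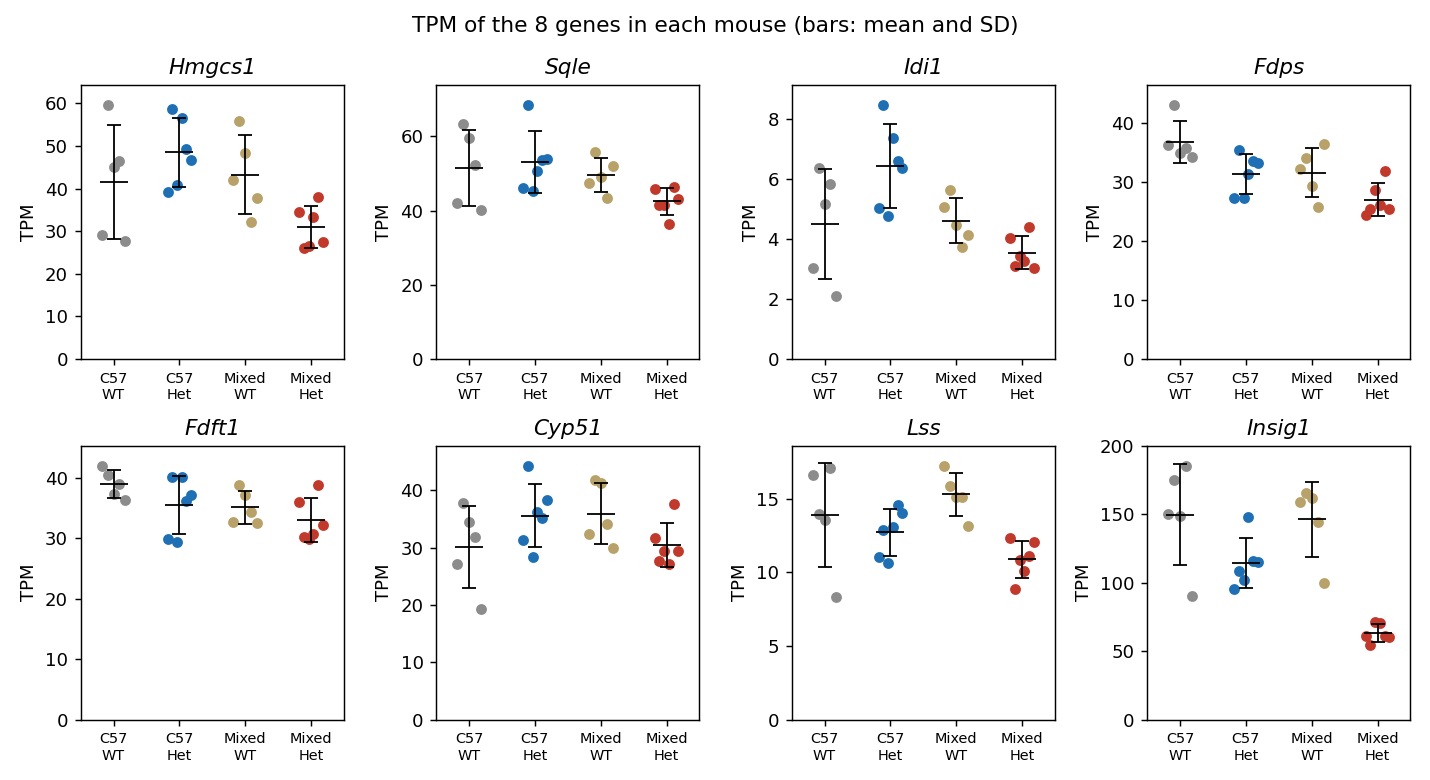
TPM of each of the 8 genes (vertical axes, each starting at 0) in the 4 groups, with 1 point per mouse and bars for the group mean and SD. The 6 Mixed Het mice lie at 54.9 to 71.3 TPM for Insig1, below every other mouse of the study.

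The first question was what the S64F allele did on the Mixed background. Insig1, Lss and Hmgcs1 fell in Mixed Het islets, 3 of the 8 members, and 0 rose. Of all genes tested, 13.5% were called lower and 30.7% higher in this comparison (44.1% in either direction; limma, Benjamini-Hochberg adjusted p under 0.05 over all genes). All 8 members had a negative log2 difference, with a median of -0.26 beside 0.10 over all genes. Groups did not overlap for 2 members, Insig1 and Lss, both lower in Het, which held for 5.76% of all genes.

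Insig1, the sterol-dependent anchor of SREBP, had the widest difference of the members. It was at 159, 166, 162, 144 and 99.9 TPM in the 5 Mixed WT mice and at 54.9 to 71.3 TPM, with a median of 61.1, in the 6 Mixed Het mice. The lowest WT mouse was above the highest Het mouse, so the groups were apart. The Het mean of 63.2 ± 6.45 TPM was 43.3% of the WT mean of 146 ± 27.1. On the log2(TPM + 1) scale Insig1 fell by 1.18 (SE 0.16), a 2.26-fold difference, with an adjusted p of 3.87e-06 in limma. The two-sided exact permutation test over all splits of the mice gave p = 0.00216, the smallest it can give.

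Lss, the enzyme that forms lanosterol, was at 17.2, 15.9, 15.1, 15.1 and 13.1 TPM in Mixed WT mice. In Mixed Het mice it was at 8.9 to 12.3 TPM with a median of 11. Here too every Het mouse lay below every WT mouse. Lss fell by 0.46 on the log2 scale (SE 0.13, limma adjusted p = 0.0082), to 71.2% of the WT mean, and the exact permutation p was again 0.00216. Hmgcs1, which acts at the head of the pathway, was at 42.1, 56, 48.3, 32.2 and 37.8 TPM in WT and at 26 to 38 TPM, with a median of 30.4, in Het mice. These groups overlapped between 32.2 and 38 TPM. Hmgcs1 fell by 0.46 as well (SE 0.18, limma adjusted p = 0.0382), to 71.6% of the WT mean (exact permutation p = 0.026). Its call rested on single mice: without Mixed WT replicate 1, 2 or 3 the difference was -0.46, -0.36 and -0.41 (limma adjusted p 0.0564, 0.115 and 0.0894), and without Mixed Het replicate 2, 3 or 6 it was -0.41, -0.42 and -0.43 (adjusted p 0.078, 0.0724 and 0.0717). The Hmgcs1 call was also lost with no filter on low values (-0.46, adjusted p = 0.0785).

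The other 5 enzymes did not pass the limma threshold in Mixed islets. For Sqle and Idi1 the exact permutation p was 0.0195 and 0.0238, unadjusted, both below the 0.026 of Hmgcs1, and for Fdps, Cyp51 and Fdft1 it was 0.0519, 0.0779 and 0.281. Between Hmgcs1 and squalene, the log2 differences of Het against WT were -0.30 for Idi1 (limma adjusted p = 0.188), -0.21 for Fdps (0.0654) and -0.09 for Fdft1 (0.427). Beyond squalene they were -0.22 for Sqle (0.131) and -0.23 for Cyp51 (0.198). The 95% intervals of these differences, without adjustment, reached from -0.68 to 0.08 for Idi1, from -0.41 to -0.02 for Fdps and from -0.27 to 0.09 for Fdft1. They reached from -0.46 to 0.02 for Sqle and from -0.52 to 0.06 for Cyp51. Fdps was called lower without Mixed Het replicate 5 (-0.26, adjusted p = 0.0291) or without Mixed WT replicate 4 (-0.28, adjusted p = 0.0194).

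The count of enzymes called in Mixed islets depended on how the libraries were scaled. TPM divides by a total in which hormone transcripts take a large share. With median-of-ratios scaling the median difference of all genes in Mixed went from 0.10 to -0.01, the members' median went from -0.26 to -0.38, and 7 of 8 members were called lower, all but Idi1. Quantile normalization and a total without the most abundant genes also called 7 lower and 0 higher. Over all genes, median-of-ratios scaling turned the split from 5137 higher and 2258 lower calls into 3582 higher and 3745 lower (22.4% of genes lower). Insig1 and Lss were called lower under 10 other settings (scalings, filters, pseudocount, acinar score as covariate and forms of the fit) and when any 1 mouse was left out. Their log2 differences ran from -1.31 to -1.13 and from -0.60 to -0.41 over these settings.

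Cell type markers also changed between the genotypes in Mixed islets, in both directions. Of 7 beta cell markers 4 were lower in Mixed Het mice, of 5 alpha markers all 5 were higher, and of 5 mesenchymal markers tested 4 were higher. All 6 immune, all 3 delta and all 4 ductal markers tested were higher too, as were 3 of 9 acinar markers and 1 of 2 pancreatic polypeptide markers. Of 5 endothelial markers 0 were called. Mixed Het replicates 1 and 5 had the highest mesenchymal scores. Without these 2 libraries the Insig1 difference was -1.16 (limma adjusted p = 6.74e-05). With the mesenchymal score as a covariate it was -0.93 (adjusted p = 0.00432), and with the alpha score -1.47 (adjusted p = 0.0264). For Lss the same settings gave -0.51, -0.40 and -0.94 (adjusted p 0.0133, 0.141 and 0.0738), and for Hmgcs1 -0.57, -0.50 and -0.70 (adjusted p 0.0267, 0.159 and 0.334). Of all genes in this comparison, 17.5% were called higher and 8.03% lower with the mesenchymal score, and 1.5% and 2.09% with the alpha score. The alpha score, a mean of log2(TPM + 1), was 7.01 to 7.67 in Mixed WT and 8.82 to 9.54 in Mixed Het mice. Genotype and that score can thus hardly be told apart in Mixed, and the SE rose to 0.29 for Lss and 0.41 for Hmgcs1. The part of the beta, delta, immune and ductal cell markers in these differences was not tested.

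The promoters of the members that were called in a comparison of genotypes, where the RefSeq table held them, are shown because SREBP2 acts with the factors NF-Y and Sp1 at short sites just before the start of such genes. The table (RefSeq, build GRCm38.p6) held 5 of the 8 members, Hmgcs1, Idi1, Cyp51, Lss and Insig1, and had no entry for Sqle, Fdps and Fdft1. The coordinates are of that build and not of the build of the expression table. Each sequence is the 250 bases before the start, on the plus strand, at chr13:119690101-119690350 for Hmgcs1, chr13:8885356-8885605 for Idi1, chr10:76531355-76531604 for Lss and chr5:28071162-28071411 for Insig1. Capitals mark matches, on either strand, to TCACNCCAC (SREBP), CCAAT (NF-Y), GGGCGG (Sp1) or CACGTG (an E box).
Hmgcs1: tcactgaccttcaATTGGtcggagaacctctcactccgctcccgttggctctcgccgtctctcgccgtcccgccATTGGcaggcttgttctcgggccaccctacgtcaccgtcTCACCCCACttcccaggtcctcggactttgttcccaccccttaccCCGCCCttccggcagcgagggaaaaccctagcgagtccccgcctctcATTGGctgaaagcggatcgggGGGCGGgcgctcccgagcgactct
Idi1: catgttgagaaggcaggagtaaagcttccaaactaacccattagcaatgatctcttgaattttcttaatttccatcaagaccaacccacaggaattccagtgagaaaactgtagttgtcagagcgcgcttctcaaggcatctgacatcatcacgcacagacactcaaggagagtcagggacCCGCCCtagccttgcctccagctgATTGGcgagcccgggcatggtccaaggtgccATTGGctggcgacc
Lss: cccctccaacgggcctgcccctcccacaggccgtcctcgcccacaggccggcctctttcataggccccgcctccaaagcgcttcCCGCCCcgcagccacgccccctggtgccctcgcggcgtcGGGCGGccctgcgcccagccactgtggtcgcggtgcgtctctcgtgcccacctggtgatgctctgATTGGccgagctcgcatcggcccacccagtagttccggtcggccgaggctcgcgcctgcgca
Insig1: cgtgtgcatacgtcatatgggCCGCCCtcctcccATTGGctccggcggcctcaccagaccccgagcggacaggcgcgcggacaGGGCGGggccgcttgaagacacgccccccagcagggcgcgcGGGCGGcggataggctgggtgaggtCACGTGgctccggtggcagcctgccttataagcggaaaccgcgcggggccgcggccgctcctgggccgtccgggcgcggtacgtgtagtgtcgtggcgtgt
All 5 promoters held CCAAT, which occurred in 33.8% of the 32851 promoters of the table, and all 5 held GGGCGG, which occurred in 32.7%. The SREBP letters TCACNCCAC were found in Hmgcs1 alone, 137 to 129 bases before the start, and in 1.05% of all promoters. The motifs do not overlap one another in these windows. Insig1 held CACGTG 101 to 96 bases before the start (6.02% of all promoters), and Cyp51, whose sequence is not printed, held TGCTGAC, the core of MAF recognition elements (3.81%). These matches are letters in a window of fixed length, and no binding was measured.

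On the C57 background the same allele was compared with its own WT mice. Idi1, the isomerase that readies isoprenoid units for FDPS, was the 1 member that rose, and 0 fell. Over all genes 38.0% were called in this comparison, 26.4% higher and 11.6% lower. The members split into 4 positive and 4 negative log2 differences with a median of -0.02, beside 0.08 over all genes. No member had groups that did not overlap, against 21.0% of all genes.

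Idi1 was at 3.03, 6.37, 5.17, 5.84 and 2.1 TPM in C57 WT mice and at 4.78 to 8.46 TPM, with a median of 6.49, in C57 Het mice. The groups overlapped, and WT replicates 1 and 5 lay below every Het mouse. Idi1 was higher by 0.49 (SE 0.18, limma adjusted p = 0.0401), at 143% of the WT mean, while the exact permutation test gave p = 0.0866. Without C57 WT replicate 5 the difference was 0.30 (adjusted p = 0.164), and without C57 WT replicate 1 it was 0.39 (0.119). Without C57 Het replicate 2, 4, 5 or 6 it was 0.41, 0.45, 0.48 and 0.49 (adjusted p 0.0958, 0.0761, 0.066 and 0.0607).

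Insig1 in C57 was at 149.8, 175.0, 148.6, 185.2 and 90.1 TPM in WT and at 95.8 to 148 TPM, with a median of 112, in Het mice. WT replicate 5 was the lowest mouse of both groups, and the other 4 WT mice were at or above the highest Het mouse. With all mice the difference was -0.36 (SE 0.16, limma adjusted p = 0.0715; exact permutation p = 0.0931). Without WT replicate 5 Insig1 was called lower, at -0.53 (limma adjusted p = 0.00438), and without Het replicate 4 likewise, at -0.44 (0.0333).

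The remaining members did not pass in C57. Hmgcs1 was at 41.5 ± 13.3 TPM in WT (n = 5) and 48.5 ± 8.04 in Het (n = 6), a log2 difference of 0.26 (limma adjusted p = 0.248). Cyp51 had 0.25 (0.158), Sqle 0.05 (0.757), Lss -0.09 (0.625), Fdft1 -0.14 (0.212) and Fdps -0.23 (0.0581). The exact permutation p of Fdps was 0.0195, unadjusted, below that of Idi1, and the other 5 members here had 0.186 or above. In limma Fdps was called lower without C57 Het replicate 2 (-0.26, adjusted p = 0.0396). Fdps was at 36.8 ± 3.55 TPM in WT and 31.3 ± 3.42 in Het mice, 85.2% of the WT mean, beside 85.5% in Mixed. All 5 alpha cell markers, all 3 delta markers and all 9 acinar markers tested were higher in C57 Het mice, as were 2 of 4 ductal markers. Of 7 beta cell markers 1 was higher and 1 lower. Lower in C57 Het mice were 2 of 6 immune and 2 of 5 endothelial markers, and no mesenchymal or pancreatic polypeptide marker was called. With the acinar score as a covariate Fdps was called lower (-0.37, adjusted p = 0.0244) and Idi1 was not called (0.38, 0.265). The scalings again moved the count: median-of-ratios scaling and a total without the most abundant genes called 0 members higher and 3 lower, and quantile normalization called 1 higher and 3 lower. The 3 were Fdps, Fdft1 and Insig1. Over all genes median-of-ratios scaling changed the split from 4422 higher and 1940 lower to 3521 higher and 3063 lower, and moved the median from 0.08 to 0.01.

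**Figure D2:**
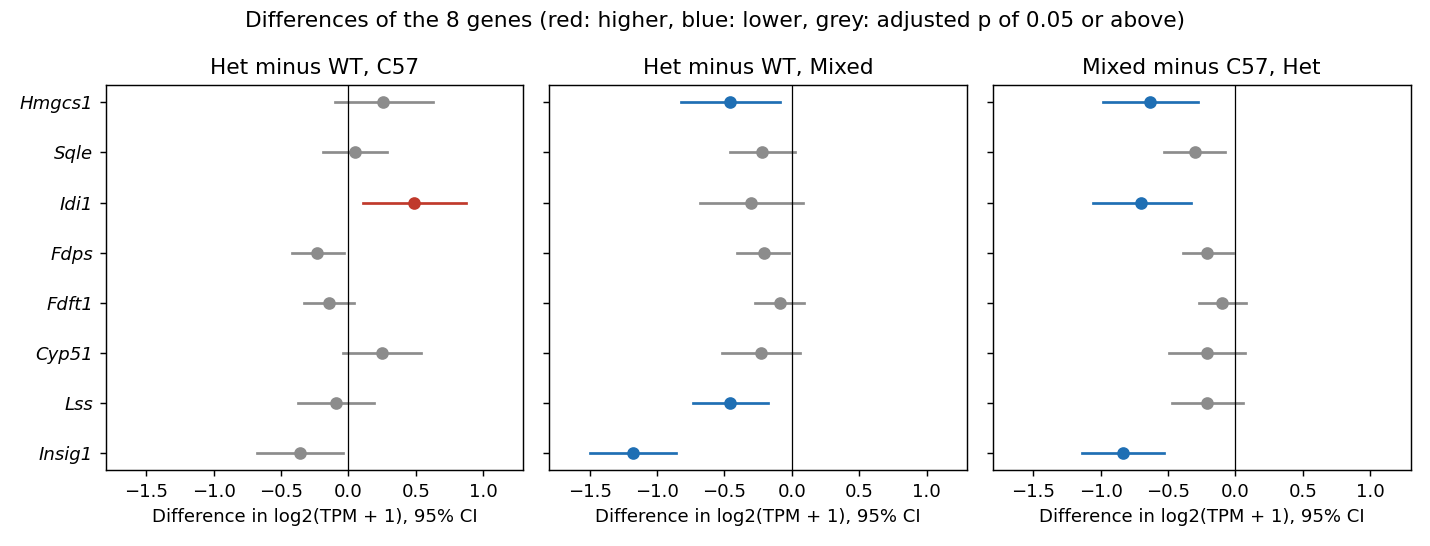
Differences of log2(TPM + 1) of the 8 genes (horizontal axis) in 3 panels, Het minus WT in C57, Het minus WT in Mixed and Mixed minus C57 in Het mice. Points are limma estimates, bars unadjusted 95% confidence intervals, red and blue mark called higher and lower, and grey is not called. In Mixed the points lie between -1.18 and -0.09, all below 0, and in C57 between -0.36 and 0.49.

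Whether the allele's effect differed between backgrounds was tested by the interaction, the Het against WT difference in Mixed minus that in C57. Insig1 was the 1 member called, with an interaction of -0.82 (SE 0.22, limma adjusted p = 0.028), where 7.36% of all genes were called and 2.74% were called negative. Its WT levels were 150 ± 36.9 TPM in C57 and 146 ± 27.1 in Mixed (n = 5 each), a difference of -0.02 with an unadjusted 95% interval of -0.35 to 0.32. Its Het levels were 114 ± 18.3 and 63.2 ± 6.45 TPM (n = 6 each). Of the markers tested, 4 of 6 immune and 3 of 5 mesenchymal genes had positive interactions past the threshold, and 2 of 7 beta cell genes had negative ones. Positive ones past the threshold were also held by 2 of 5 alpha, 1 of 3 delta and 1 of 4 ductal markers. No pancreatic polypeptide, acinar or endothelial marker was called. The call of Insig1 was lost without Mixed WT replicate 1 (-0.78, adjusted p = 0.0515), replicate 2 (-0.77, 0.0524) or replicate 3 (-0.78, 0.052). It was also lost with no filter on low values (-0.82, 0.0669). The call was lost too without the 2 Mixed Het libraries of highest mesenchymal score (-0.80, 0.0686) and with the mesenchymal score as a covariate (-0.56, 0.444). Of all genes, 1.22% had positive and 0.688% negative interactions called with no filter. These shares were 1.99% and 1.63% without the 2 libraries, and 0.0537% and 0.0955% with the mesenchymal score. With the alpha score the call of Insig1 was kept, at -0.94 (0.0434). Without C57 WT replicate 5 it was kept, at -0.65 (0.0413).

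Hmgcs1 and Idi1 had interactions of similar size that missed the threshold in the main fit. They were -0.79 for Idi1 (limma adjusted p = 0.0634), -0.72 for Hmgcs1 (0.0758), -0.48 for Cyp51 (0.13), -0.37 for Lss (0.221) and -0.27 for Sqle (0.303). Hmgcs1 was called without C57 WT replicate 2 (-0.86, adjusted p = 0.0242), and Idi1 without C57 WT replicate 2 or 4 (-0.91 and -0.89, adjusted p 0.0273 and 0.0424). Fdps and Fdft1, the enzymes next to the branch point at farnesyl diphosphate, were at 0.01 (0.962) and 0.05 (0.825). Their unadjusted 95% intervals were -0.26 to 0.28 and -0.21 to 0.31.

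The backgrounds were also compared directly within each genotype. In WT islets 0 of the 8 members were called in limma, where 11.3% of all genes were, and the differences of Mixed against C57 ran from -0.22 for Fdps to 0.27 for Cyp51. In limma Fdps alone had an unadjusted p under 0.05 (0.0329, adjusted p = 0.149). The exact permutation test, also unadjusted, gave p = 0.0635 for Fdps and 0.0476 for Fdft1. In Het islets Insig1, Idi1 and Hmgcs1 were lower in Mixed than in C57, and 0 members were higher, where 20.5% of all genes were called, 13.3% higher and 7.13% lower. All 3 had groups that did not overlap, as 3.28% of all genes did in this direction. These Mixed Het mice are the same mice as in the comparison of genotypes above, so the comparisons are not independent.

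In Het mice Insig1 was at 95.8 to 148 TPM in C57 and 54.9 to 71.3 TPM in Mixed, a difference of -0.83 (SE 0.15, limma adjusted p = 0.000446). For Idi1 the ranges were 4.78 to 8.46 and 3.03 to 4.4 TPM, and the Mixed mean was 55.1% of the C57 mean (-0.70, SE 0.17, adjusted p = 0.00703). Hmgcs1 was at 39.1 to 58.8 and at 26 to 38 TPM (-0.63, SE 0.17, adjusted p = 0.0102). In each of these genes the highest Mixed Het mouse lay below the lowest C57 Het mouse, and the two-sided exact permutation p was 0.00216, the smallest possible. Sqle had -0.30 (limma adjusted p = 0.053) and was called without C57 Het replicate 1 (-0.34, 0.0455) or 3 (-0.35, 0.0381). The other 4 members had differences of -0.21 to -0.10. With the mesenchymal score as a covariate 0 members were called, where 1.19% of all genes were called higher and 0.794% lower. Insig1, Hmgcs1 and Idi1 then had -0.60, -0.67 and -0.59 (limma adjusted p 0.15, 0.183 and 0.281). That score was 2.94 to 3.59 in C57 Het and 3.40 to 5.88 in Mixed Het mice, so score and background can hardly be told apart here. Without the 2 Mixed Het libraries of highest mesenchymal score the 3 calls were kept (-0.81, -0.75 and -0.80, adjusted p 0.00468, 0.0132 and 0.0124). With the alpha score they were kept too (-0.84, -0.63 and -0.71, adjusted p 0.000528, 0.0109 and 0.00604), and Sqle was called lower (-0.31, 0.0427).

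Genes around the members were read from 6 lists. Their counts are to be read beside the shares of all genes called: 26.4% higher and 11.6% lower in C57, and 30.7% higher and 13.5% lower in Mixed. Of 15 tested genes among 16 other enzymes of cholesterol synthesis, 4 fell and 1 rose in Mixed Het islets, and 1 fell and 1 rose in C57. Msmo1, a methyl sterol oxidase that acts downstream of CYP51, was at 22.9 to 40.5 TPM in Mixed WT mice and at 14 to 20.7 TPM in Mixed Het mice, without overlap. It fell by 0.76 in Mixed (limma adjusted p = 0.000525), had a difference of -0.01 in C57 (0.973) and an interaction of -0.75 (0.0423). Lbr and Tm7sf2, which both encode sterol reductases of the step after CYP51, fell by 0.57 each in Mixed (adjusted p 0.00012 and 0.00166), and Tm7sf2 also fell by 0.63 in C57 (0.00102). Ebp, a sterol isomerase of the late pathway, went the other way and rose by 0.43 (C57, 0.00101) and 0.59 (Mixed, 2.16e-05). The median of the list was -0.01 in C57 and -0.04 in Mixed.

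Among the 11 regulators of SREBP, 8 rose and 1 fell in C57, and 7 rose and 2 fell in Mixed. Under the 3 other scalings 8 rose and 1 fell in C57, and 4 rose and 2 fell in Mixed. Over all genes, median-of-ratios scaling called 21% higher and 18.3% lower in C57, and 21.4% and 22.4% in Mixed. The genes that fell were those of the SREBP factors. Srebf1, which encodes SREBP1, was at 87 to 110 TPM in Mixed WT mice and at 41.4 to 49.9 TPM in Mixed Het mice, again without overlap. It fell by 1.05 in Mixed (limma adjusted p = 6.53e-09) and by 0.35 in C57 (0.00344), with an interaction of -0.70 (0.00281). Srebf2, which encodes SREBP2, was at 58.8 ± 8.06 TPM in Mixed WT and 45.7 ± 5.07 in Mixed Het mice and fell by 0.35 (0.0155). In C57 its difference was 0.27 (0.0715), and the interaction was -0.62 (0.0248).

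Among the regulators that rose, Rnf139, an E3 ubiquitin ligase of the endoplasmic reticulum, was higher by 0.33 on both backgrounds. Erlin1, a membrane protein of the endoplasmic reticulum, rose by 0.49 in C57 islets and by 0.50 in Mixed ones. Scap, the SREBP escort, rose by 0.40 in C57 islets and 0.20 in Mixed islets (limma adjusted p = 0.04 for the latter), whose call was lost under all 3 other scalings. Insig2, the paralog of Insig1, had 0.25 in C57 and rose by 0.35 in Mixed (0.0154), also lost under the 3 scalings. The median of the list was 0.37 in C57 and 0.26 in Mixed.

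**Figure D3:**
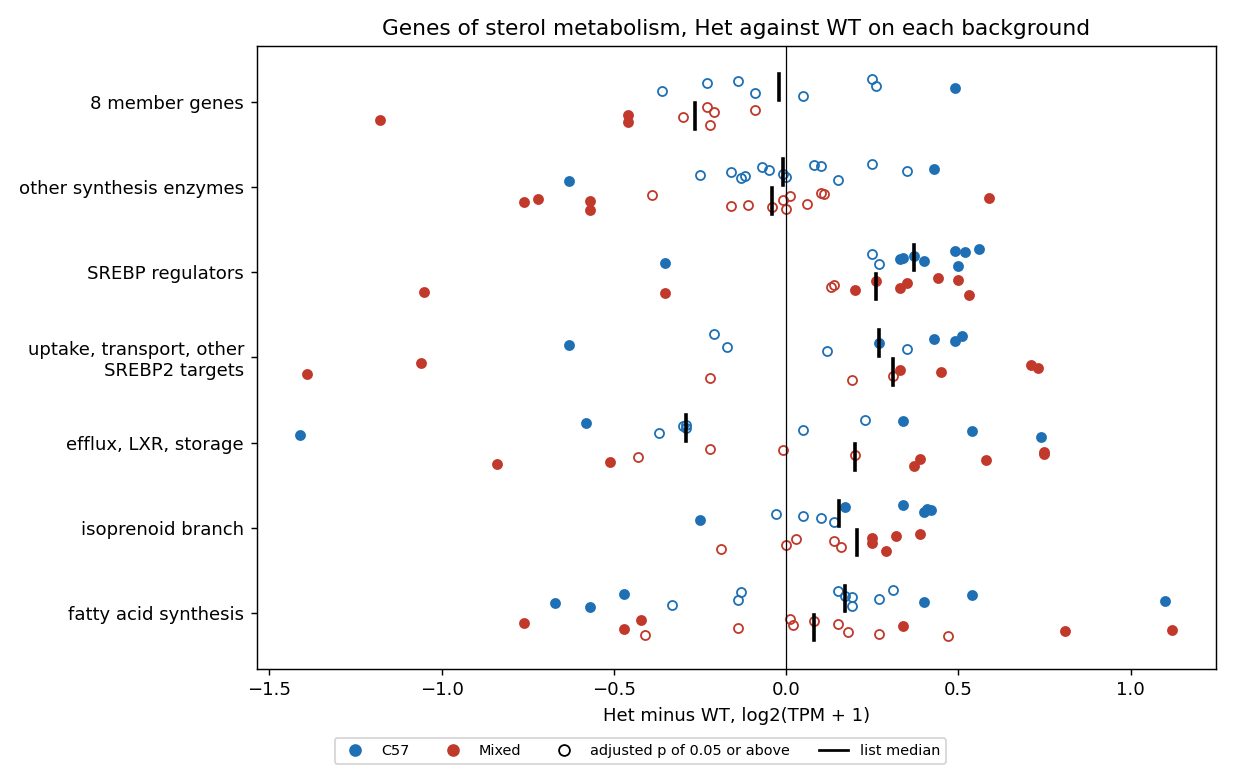
Het against WT differences of log2(TPM + 1) (horizontal axis) for the genes of the 8 members and the 6 lists, with C57 in blue, Mixed in red, filled points for an adjusted p under 0.05 and black bars for list medians. The members' median is -0.02 in C57 and -0.26 in Mixed, while the regulators' medians are 0.37 and 0.26.

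Other branches of lipid metabolism changed in both directions. Of 9 tested genes of sterol uptake, transport and other SREBP2 targets (10 listed), 4 rose and 1 fell in C57, and 4 rose and 2 fell in Mixed. Stard4, a sterol carrier of this list, had 0.35 in C57 (limma adjusted p = 0.0514) and -0.22 in Mixed (0.199), and was called lower in Mixed under the 3 other scalings. Of 11 tested genes of sterol efflux, LXR and storage (12 listed), 3 rose and 2 fell in C57, and 5 rose and 2 fell in Mixed. Nr1h3, which encodes the sterol-sensing receptor LXR alpha, fell by 1.41 in C57 (5.17e-08) and by 0.84 in Mixed (1.78e-05). Soat1, which esterifies cholesterol for storage, rose by 0.74 and 0.37, the second not called with a total without the most abundant genes (0.28, adjusted p = 0.0549).

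Of the 10 enzymes that use farnesyl or geranylgeranyl diphosphate for other products, 5 rose and 1 fell in C57, and 5 rose and 0 fell in Mixed, beside 26.4% of all genes higher and 11.6% lower in C57 and 30.7% and 13.5% in Mixed. Median-of-ratios scaling left 3 higher and 1 lower in C57, and 1 higher and 1 lower in Mixed, beside 21% and 18.3%, and 21.4% and 22.4%, of all genes. Dhdds, a subunit of the enzyme that makes dolichol precursors, rose by 0.34 and 0.39, and neither call held under that scaling. Among 15 fatty acid targets of SREBP1, 3 rose and 3 fell on each background, counts near the shares of all genes. Acly, which supplies acetyl-CoA to both pathways, fell by 0.42 in Mixed (limma adjusted p = 0.00475), had 0.15 in C57 (0.305) and an interaction of -0.58 (0.0338). Elovl5, a fatty acid elongase, fell by 0.47 in C57 and 0.76 in Mixed, whereas Me1, which makes NADPH, rose by 1.10 and 1.12.

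Within groups the levels of the members were positively correlated, some pairs closely and others weakly. With the group mean removed, the Pearson correlation of log2(TPM + 1) over the 22 mice was positive for all 28 pairs, from 0.15 to 0.91, with a median of 0.60. Mice share library scale and cell makeup across all genes, and no values for pairs of other genes are given beside these, so these values are descriptions. Without C57 WT replicate 5 the range was 0.06 to 0.91 and the median 0.53. Hmgcs1 and Idi1 were the closest pair (r = 0.91, Spearman rho = 0.93, r = 0.91 without the 2 mice farthest from the median). Idi1 with Cyp51 (r = 0.88, rho = 0.84, 0.79 without 2) and Sqle with Idi1 (r = 0.85, rho = 0.82, 0.81 without 2) followed. Insig1 was closest to Lss (r = 0.74, rho = 0.54, 0.53 without 2) and had r = 0.30 with Sqle (rho = 0.18), which went to 0.02 without 2 mice. Without the same 2 mice r was 0.00 for Fdps with Insig1, 0.05 for Sqle with Lss and 0.06 for Fdps with Lss. The enzymes Hmgcs1, Idi1, Sqle and Cyp51 had r of 0.79 or above with each other.

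**Figure D4:**
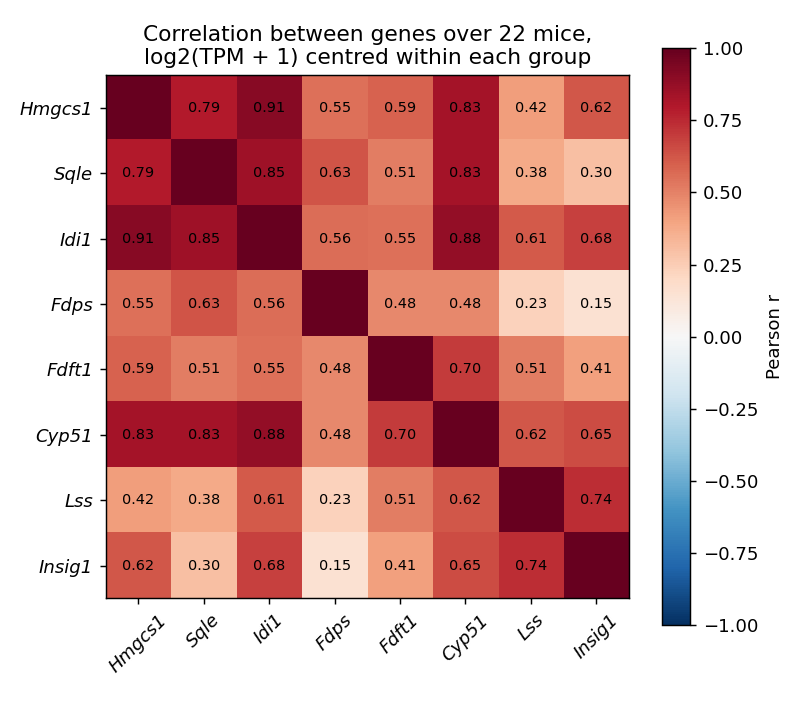
Pearson correlation between the 8 genes over 22 mice, from log2(TPM + 1) centred within each group, with the value of r in each cell and a colour scale from -1 to 1. Values run from 0.15 (Fdps with Insig1) to 0.91 (Hmgcs1 with Idi1).

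Genes whose levels followed the members most closely were ranked by the correlation with the mean of the 8 members' z-scores, centred in the same way, over 22 mice. Msmo1 came first (r = 0.91, rho = 0.88) and Stard4 next (r = 0.89, rho = 0.92). Smim13 (r = 0.88), Acly (0.87), Api5 (0.87), Tenm3 (0.87), Tmem263 (0.86), Sod2 (0.85), Pdp1 (0.85) and Psmc6 (0.85) completed the 10. Of these, 3 belong to the lists above. Without the 2 mice farthest from the median, C57 WT replicate 5 and C57 Het replicate 3, r was 0.89 for Msmo1, 0.84 for Stard4 and 0.76 to 0.81 for the other 8.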

How the data were processed

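Islet poly(A) RNA of 22 male mice was sequenced. The authors deposited 1 table of TPM per gene, per the file headers. STAR 2.7.10b, MultiQC 1.7 and build mm39 are named in the submitters' processing notes, and the counting tool and annotation are not given in the sources used here. Each column summed to 1000000, and 0 value columns were left unused. TPM keeps no depth, so no interval from counts was computed. Samples were grouped by the labels. Each is a separate mouse, replicate numbers follow accession order, and library numbers run through the groups in turn, so library order and group cannot be told apart.

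limma 3.58.1 in R 4.3.3 fitted the 4 group means of log2(TPM + 1), with eBayes trend, to all 22 mice. Folds on this scale are too small for weakly expressed genes. The filter kept the 16756 genes that reached 1 TPM in 5 or more mice, and p-values were adjusted by Benjamini-Hochberg over all of them, with a threshold of 0.05. Two-sided exact permutation tests were run for single members, 32 in all and not adjusted. A Benjamini-Hochberg adjustment over these 32 had been planned and is not given, so their p-values are to be read as unadjusted. The script was tested on simulated data. Alternatives were a pseudocount of 0.1, no filter, a mean TPM of at least 5, 3 other scalings, fits to only the mice compared, a covariate for acinar markers, no trend, sample weights and leaving out each mouse. Leaving out 2 Mixed Het libraries and the mesenchymal or alpha score as covariate were chosen after seeing the data.

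The rule for named genes takes the 8 members, Mafa, genes of the 6 lists beside the count of their list, and the 10 genes most correlated with the members. Members and lists were chosen with earlier results of these data known, and some list genes are not reported singly here.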

Additional observations from a re-analysis of the deposited data

Results flagged for a closer look

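In each group, the highest and lowest mouse were compared with the rest by Dixon's test for all 8 members. Of 32 groups 2 held a mouse beyond the 95% critical value, a test by which chance flags about 1 in 20 groups. These were Sqle in C57 Het replicate 2, at 68.4 TPM, and Fdps in C57 WT replicate 2, at 43 TPM.

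The Het against WT difference differed between backgrounds, by the interaction term of the limma fit, for 5 of the genes named. The interactions were -0.82 for Insig1, -0.75 for Msmo1, -0.70 for Srebf1, -0.62 for Srebf2 and -0.58 for Acly (adjusted p 0.028, 0.0423, 0.00281, 0.0248 and 0.0338). These 5 are the genes named in the text, all with a more negative difference in Mixed than in C57, and all 5 were called under each of the 3 other scalings too. The Insig1 call was lost with no filter, without the 2 Mixed Het libraries and with the mesenchymal score (limma adjusted p 0.0669, 0.0686 and 0.444). Values under those settings are not given for the other genes named. The list of sterol uptake, transport and other SREBP2 targets held 2 further negative interactions past the threshold, in a list whose lowest value was -0.86. The lists also held positive interactions past the threshold, 1 gene of sterol efflux, LXR and storage and 2 fatty acid targets, with values of up to 1.34 and 1.04. Over all genes 774 interactions were called positive and 459 negative.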

How the results depend on the processing

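No paired analysis was made, because each sample is a separate mouse and the labels give nothing that pairs mice between groups. Counts of the 8 members called in C57, Mixed, the interaction and Mixed against C57 Het were 1, 3, 1 and 3. With median-of-ratios scaling they were 3, 7, 3 and 5, with quantile normalization 4, 7 and 2 in the first 3, with a total without the most abundant genes 3, 7, 2 and 5, and with sample weights 2, 6, 2 and 6. Calls under these settings were lower or negative, except 1 higher in C57 with quantile normalization. Over all genes, quantile normalization called 22% higher and 17.2% lower in C57, and 25.2% and 19.9% in Mixed. A total without the most abundant genes gave 19.1% and 18.9%, and 21.9% and 20.8%. Sample weights gave 30.4% and 10.3%, and 29.4% and 16.3%. The main fit gave 26.4% and 11.6%, and 30.7% and 13.5%. Over all genes, median-of-ratios scaling called 4.19% of interactions positive and 6.45% negative, and 11.4% higher and 12% lower in Mixed against C57 Het. With sample weights these shares were 6.98% and 8.7%, and 20.9% and 18.3%. With quantile normalization 5.55% of interactions were positive and 5.35% negative. A total without the most abundant genes gave 4.79% and 4.68%, and 10.9% and 12% in Mixed against C57 Het. In the same order the main fit gave 4.62% and 2.74%, and 13.3% and 7.13%. The C57 count was 0 with no filter, with the samples of the contrast alone and with the alpha score, and the interaction count was 0 with no filter, without the 2 Mixed Het libraries and with the mesenchymal score. In Mixed the count was 1 with the mesenchymal or the alpha score, and in Mixed against C57 Het 0 with the mesenchymal score. The shares of all genes called moved with these settings too. With no filter 10.8% were higher and 5.56% lower in C57, and with the samples of the contrast alone 25.3% and 10.9%. The alpha score gave 2.79% and 2.92% in C57, and 1.5% and 2.09% in Mixed. The mesenchymal score gave 17.5% and 8.03% in Mixed, and 1.19% and 0.794% in Mixed against C57 Het. Leaving out 1 mouse gave 0 to 1 in C57, 2 to 4 in Mixed, 0 to 3 in the interaction and 3 to 4 in Mixed against C57 Het. Of all genes, 20.9% to 28.3% were then higher and 8.24% to 13.7% lower in C57. In Mixed these shares were 26.3% to 31.2% and 10.7% to 14.5%. For the interaction they were 2.88% to 6.77% positive and 1.68% to 4.8% negative. In Mixed against C57 Het they were 10.1% to 15% and 5.17% to 7.79%. Mixed against C57 WT had 0 throughout. A mean TPM of at least 5 removed Idi1 from the test.

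Differences that changed sign were not called. Sqle in C57 was -0.04, -0.06 and -0.06 under the 3 scalings, -0.02 with the acinar score, -0.12 with weights and -0.14 with the alpha score. The interaction of Fdps was -0.03 with median-of-ratios scaling and with weights, -0.01 without the 2 libraries, and -0.02 and -0.10 with the mesenchymal and alpha scores. That of Fdft1 was -0.04, -0.13 and -0.05 in the last 3. For Mixed against C57 WT, weights gave -0.02 for Hmgcs1 and -0.08 for Idi1, and the alpha score gave 0.09 for Sqle and 0.10 for Insig1. Leaving out 1 mouse gave -0.03 to 0.13 for Sqle in C57, -0.06 to 0.06 for the Fdps interaction, and -0.04 to 0.23, -0.12 to 0.04, -0.09 to 0.22 and -0.19 to 0.11 for Hmgcs1, Sqle, Idi1 and Insig1 between WT backgrounds. The cause was not tested. The unknown depth limits what can be said of low genes such as Idi1.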
